A study of Homo sapiens with 8 samples.

Results

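Receptor tyrosine kinases sit in the cell membrane, bind growth factors outside the cell and, through adaptor proteins, switch on the RAS-ERK and PI3K-AKT pathways inside it. The genes described here are 7 of these receptors (MET, IGF1R, INSR, FGFR2, FGFR3, FGFR4 and EPHA2), the secreted growth factor FGF19 and the insulin receptor substrates IRS1 and IRS2. They were chosen by name, 10 of the 38148 genes in the deposited table, and all 10 passed the filter on low values. FGF19 is made by the intestinal epithelium and signals mainly through FGFR4, IRS1 and IRS2 carry the signal of the insulin and IGF1 receptors, MET binds hepatocyte growth factor, and EPHA2 binds ephrins on neighbouring cells. MEK inhibition removes the output of ERK, and ERK itself feeds back on several of these receptors and adaptors.

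The cells were HT29, a colorectal cancer line with an activating BRAF mutation, untreated or given the MEK inhibitor selumetinib at 1 μM for 24 h. In all 4 groups the cells were fixed in glyoxal, stained for the mitotic cyclin CCNB1 and flow sorted, and poly(A) RNA was sequenced from 2 libraries per group. The groups were thus the CCNB1-negative and the CCNB1-positive fraction of untreated cells, and the same pair of fractions of treated cells, all of this single line. A comparison of the treated fractions bears on how cells that still carry CCNB1 under the drug differ from the CCNB1-negative cells. The labels do not state whether the 2 libraries of a group came from separate cultures, so the p-values measure the spread between these libraries, which may be technical.

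The labels of all 8 libraries contradict themselves. Titles and growth conditions give the other treatment, and titles the other fraction, to what the descriptions and the column names of the table give, and groups here follow the descriptions. CCNB1 mRNA, as the deposited log2 value, stood at 11.66 and 12.01 in the negative and at 13.79 and 14.05 in the positive fraction of untreated cells, and at 7.92 and 7.22 against 12.76 and 12.53 in the treated ones. It was thus higher in each positive fraction, as described, and would be lower in each if the titles held. Under the titles, the response given here for CCNB1-negative cells would be that of CCNB1-positive cells with its sign turned, and the reverse. ERK target genes checked the treatment in the same way. Of 8 tested, 7 were lower in the libraries described as treated in both fractions, and EGR1 was higher.

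Reads on genes numbered 12696860 to 23916160 per library. Reads of the nuclear RNA MALAT1 made up 0.303 to 0.386% of these in untreated and 2.01 to 4.42% in treated libraries, and reads of mitochondrial genes 4.44 to 7.80% and 11.9 to 14.8%. At the deposited scale, treated libraries had 90.0 to 94.0% of the reads on genes of the first untreated CCNB1-positive library, and untreated ones 99.5 to 101%. All 9 epithelial markers were present in every group, while 7 markers of fibroblasts, leukocytes and endothelium summed to 1.57 to 2.09 RPM (reads per 1000000 reads on genes) in untreated and 3.54 to 7.06 in treated libraries, with 1 or 2 of the 7 at 0 reads in both libraries of each group. Of these only COL1A1 was tested (1.81 and 2.19 higher on the log2 scale under the drug in the negative and positive fraction). It had 6 to 24 reads in untreated and 20 to 107 in treated libraries, and passed the filter on low values through the treated ones. The part of these shifts in the results was not tested. In such bulk samples, fewer cells expressing a gene and less RNA per cell cannot be told apart.

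The promoters of the genes that moved most are given as a reference, because 3 long receptor genes rose together and a receptor fell. Each window runs from 250 bases before to 50 bases after a RefSeq start site on GRCh38.p14, and 9 of the 10 genes had an entry, FGF19 being the other. Where a gene had several, the window nearest the start of the deposited gene was taken. Capitals mark matches to 8 motifs searched on both strands after the expression values were known. The INSR window is chr19:7294365-7294664 on the minus strand, FGFR2 chr10:121598395-121598694 on the minus strand, IGF1R chr15:98648289-98648588 on the plus strand and EPHA2 chr1:16156020-16156319 on the minus strand.
INSR: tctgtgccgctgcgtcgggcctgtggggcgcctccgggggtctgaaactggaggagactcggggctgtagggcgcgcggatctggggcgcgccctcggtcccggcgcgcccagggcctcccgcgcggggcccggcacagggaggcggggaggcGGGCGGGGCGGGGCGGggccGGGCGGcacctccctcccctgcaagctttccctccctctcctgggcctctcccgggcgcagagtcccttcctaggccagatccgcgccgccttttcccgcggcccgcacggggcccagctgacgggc
FGFR2: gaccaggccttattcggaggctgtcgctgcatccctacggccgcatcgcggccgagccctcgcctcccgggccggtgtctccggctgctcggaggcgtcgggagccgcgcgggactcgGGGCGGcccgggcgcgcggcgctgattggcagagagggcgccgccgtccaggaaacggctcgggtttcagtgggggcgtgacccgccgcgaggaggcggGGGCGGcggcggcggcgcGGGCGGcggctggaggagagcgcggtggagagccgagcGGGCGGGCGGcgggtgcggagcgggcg
IGF1R: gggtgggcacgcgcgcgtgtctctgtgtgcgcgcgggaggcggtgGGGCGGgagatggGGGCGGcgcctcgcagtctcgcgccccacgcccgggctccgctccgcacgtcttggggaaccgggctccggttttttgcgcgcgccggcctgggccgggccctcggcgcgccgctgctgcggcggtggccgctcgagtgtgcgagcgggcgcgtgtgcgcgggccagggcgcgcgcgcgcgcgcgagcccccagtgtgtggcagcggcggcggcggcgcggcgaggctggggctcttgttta
EPHA2: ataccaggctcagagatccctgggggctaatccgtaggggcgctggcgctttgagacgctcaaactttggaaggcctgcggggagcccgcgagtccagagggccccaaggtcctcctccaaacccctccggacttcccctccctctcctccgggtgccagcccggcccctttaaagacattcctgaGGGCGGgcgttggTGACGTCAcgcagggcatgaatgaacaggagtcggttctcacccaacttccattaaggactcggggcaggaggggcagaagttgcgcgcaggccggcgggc

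The capitals in the first 3 windows are all GC boxes (GGGCGG, the SP factor motif), 4 in INSR, 5 in FGFR2 and 2 in IGF1R. EPHA2, which fell, had 1 GC box and 1 cyclic AMP response element (TGACGTCA), the latter 51 bases before the start. A GC box was found in all 9 windows and in 45.0% of the 35116 RefSeq windows. The 9 windows were also richer in G and C, at 64.3 to 86.3% of bases against a median of 58.7% over all windows. The part of this base composition in the GC box matches was not tested. The response element was in 1 of 9 and in 1.85%, and an E-box (CACGTG) in 2 of 9 (IRS1 and MET) and in 7.26%. Matches to the remaining motifs were found in 0 of the 9. The FOXO motif GTAAACA was in 3.42% of all windows. The AP-1 motif TGANTCA was in 7.71%, and the ETS motif CCGGAAG in 10.3%. The TATA motif TATAAA was in 11.5%, and the CArG box of serum response factor in 1.29%. No matches of different motifs overlapped. Rising and falling genes thus shared GC boxes, and the matches are a description of letters only.

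Most of these genes changed under selumetinib in both fractions. In CCNB1-negative cells 4 of 10 rose (INSR, FGFR2, IGF1R and FGFR3) and 5 fell (FGF19, EPHA2, MET, IRS1 and FGFR4), by limma with an adjusted p under 0.05, and IRS2 did not pass. Among all 14219 genes tested 38.2% rose and 35.8% fell in that comparison, so the number of genes called was not unusual for these data, and the sizes of the changes carry the description. In CCNB1-positive cells 5 rose, the same 4 and IRS2, and the same 5 fell, against 38.0% and 27.3% of all genes. No library of a treated group overlapped an untreated library of its fraction for any gene called. The 2 comparisons have no library in common, but share the estimate of the spread.

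**Figure D1:**
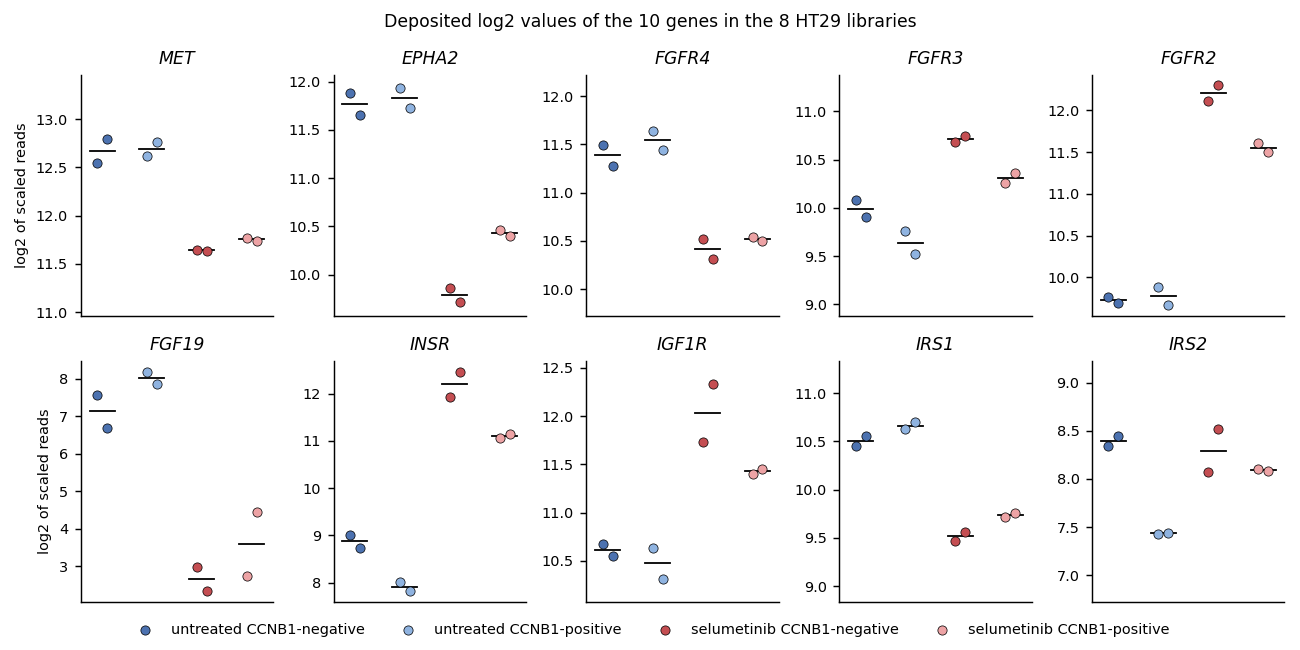
Deposited log2 values (log2 of reads scaled to the largest library, y axis) of the 10 genes in each library, with 2 points and a line at the mean for each of the 4 groups. The y axes differ between panels. INSR and FGFR2 stand higher and FGF19, EPHA2 and MET lower in all 4 treated libraries than in all 4 untreated ones.

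FGF19 showed the largest change of the 10 on the deposited scale. Its log2 value was 7.58 and 6.69 in the negative and 8.19 and 7.87 in the positive fraction of untreated cells, and 2.97 and 2.35, and 2.76 and 4.46, in the treated ones. In reads these are 176, 82, 292 and 213 untreated and 5, 3, 6 and 14 treated, so FGF19 was near the floor of detection under the drug and passed the filter on low values through its untreated libraries. Without that filter the adjusted p was 8.41e-05 in the negative and 0.000174 in the positive fraction. It fell by 4.47 ± 0.52 (SE) on the log2 scale in CCNB1-negative cells (adjusted p = 3.48e-06) and by 4.42 ± 0.52 in CCNB1-positive cells (adjusted p = 8.58e-06). Over the summed reads, the untreated level was 23.1 times the treated one in the negative fraction (95% exact interval 11.5 to 54.0) and 20.1 times in the positive fraction (12.9 to 33.2), intervals that cover counting error only. With log2(RPM + 1) in place of the deposited scale, where low values are damped, the falls were 2.41 and 2.88, smaller in size than the rises of INSR on that scale (3.39 and 3.17).

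FGF19 lies on the minus strand of chromosome 11 (GRCh38, 69698238 to 69704022) in a gene-dense stretch that is often amplified in cancers. The start coordinate of CCND1, the cyclin that drives G1 progression and an ERK target, is 57.2 kb away, and CCND1 fell by 1.60 ± 0.14 and 1.29 ± 0.14 on the log2 scale in the negative and positive fraction. ANO1, a chloride channel 380 kb away, fell by 3.25 ± 0.16 and 2.48 ± 0.16. LTO1, which lies between CCND1 and FGF19, gave -0.11 ± 0.17 and -0.16 ± 0.17 and did not pass (adjusted p = 0.564 and 0.397), and PPFIA1 rose by 0.64 ± 0.15 and 0.39 ± 0.15. Of 8 neighbours listed, 6 were tested, and 4 of these fell and 1 rose in each fraction (median -1.10 and -0.93, against 0.05 and 0.17 over all genes). Among all genes 35.8% fell and 38.2% rose in the negative fraction, and 27.3% fell and 38.0% rose in the positive fraction. Most of the tested neighbours thus fell, but not all.

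Several genes of the enterohepatic FGF19 system were under the filter on low values and were not tested. These were KLB and KL, the co-receptors that FGF19 and its relatives need, the bile acid receptor NR1H4 and the bile acid exporter genes SLC51A and SLC51B. The filter takes the mean log2 value of all 8 libraries, a mean that libraries with few reads pull down. NR1H4 had 7, 6, 1 and 4 reads in the untreated and 46, 51, 41 and 24 in the treated libraries. SLC51A had 1 to 6 and 7 to 21. KLB, KL and SLC51B had at most 18 reads in any library. The higher NR1H4 and SLC51A reads under the drug were not tested. RXRA, the partner of NR1H4, had 695 to 2054 reads per library, NR0B2 178 to 316 and the bile acid binding protein gene FABP6 42 to 80. Of these 3, which were tested, only NR0B2, a nuclear receptor that NR1H4 induces in bile acid signalling, was called, higher by 0.85 ± 0.22 in CCNB1-positive cells (adjusted p = 0.00364) and at 0.28 ± 0.22 in CCNB1-negative cells (adjusted p = 0.256).

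The 3 expressed FGF receptors did not move together. FGFR2 stood at 9.77 and 9.70 in the negative and 9.88 and 9.67 in the positive fraction of untreated cells, and at 12.11 and 12.30, and 11.61 and 11.51, under selumetinib. It was higher by 2.47 ± 0.14 in the negative fraction (5.55-fold, adjusted p = 8.05e-09) and by 1.78 ± 0.14 in the positive fraction (3.43-fold, adjusted p = 5.08e-07). FGFR3 stood at 10.08, 9.90, 9.76 and 9.52 untreated and at 10.69, 10.75, 10.26 and 10.37 treated, a smaller rise of 0.73 ± 0.15 and 0.67 ± 0.15 (adjusted p = 0.000557 and 0.00139). The call in CCNB1-positive cells was lost with limma-voom on the recovered reads (0.33, adjusted p = 0.0687), a scaling under which the median of all genes was -0.17 there. FGFR4, the main FGF19 receptor, went the other way, from 11.50, 11.28, 11.64 and 11.44 to 10.52, 10.31, 10.54 and 10.50. It fell by 0.98 ± 0.15 in the negative and by 1.02 ± 0.15 in the positive fraction (adjusted p = 4.27e-05 and 5.09e-05). FGFR1 had 0 to 2 reads per library and was not tested.

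**Figure D2:**
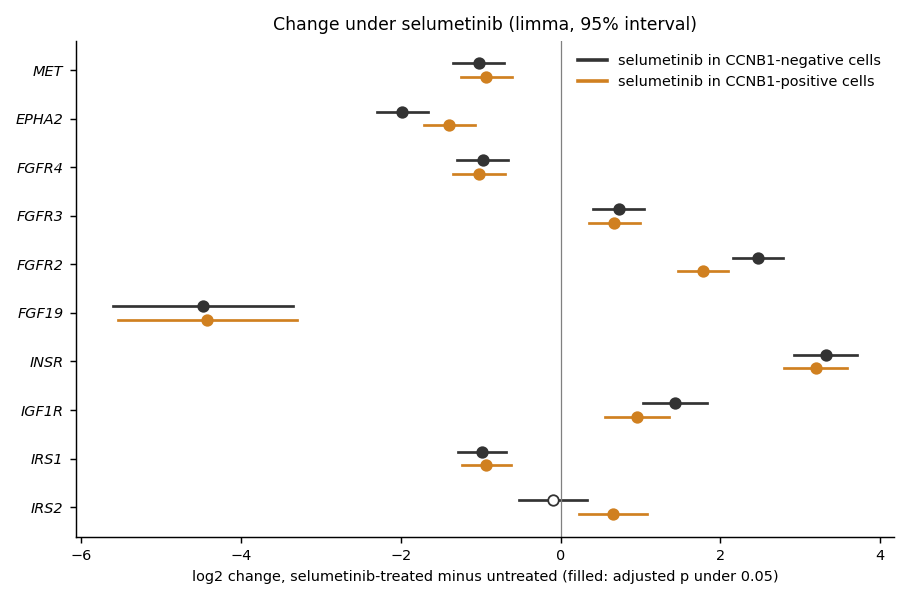
Change under selumetinib (x axis, log2, treated minus untreated) of the 10 genes in CCNB1-negative (black) and CCNB1-positive (orange) cells, with points at the limma estimate and bars for the 95% interval. Filled points have an adjusted p under 0.05. IRS2 in CCNB1-negative cells, at -0.10, is the only open point, and FGF19 at -4.47 and -4.42 and INSR at 3.32 and 3.19 are the extremes.

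The order of the FGF receptors, per length, turned over. In RPKM (reads per kilobase of the canonical transcript per 1000000 reads on genes), FGFR4 led in untreated CCNB1-negative cells at 36.4 ± 4.2 (SD, n = 2), with FGFR3 at 9.91 ± 0.94 and FGFR2 at 7.69 ± 0.33. Under selumetinib FGFR2 led at 47.1 ± 5.1, with FGFR4 at 20.3 ± 1.8 and FGFR3 at 18.0 ± 0.79, the last pair close to the spread of their libraries. The ratio of FGFR2 to FGFR4 per base was 0.201 and 0.223 in untreated CCNB1-negative libraries and 2.01 and 2.66 in treated ones. In CCNB1-positive cells it was 0.198 and 0.196 untreated and 1.40 and 1.34 treated. The treated values were above 1 in all 4 libraries and the untreated values below 1 in all 4. These ratios do not depend on how the libraries were scaled, but they take the length of 1 transcript per gene.

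**Figure D3:**
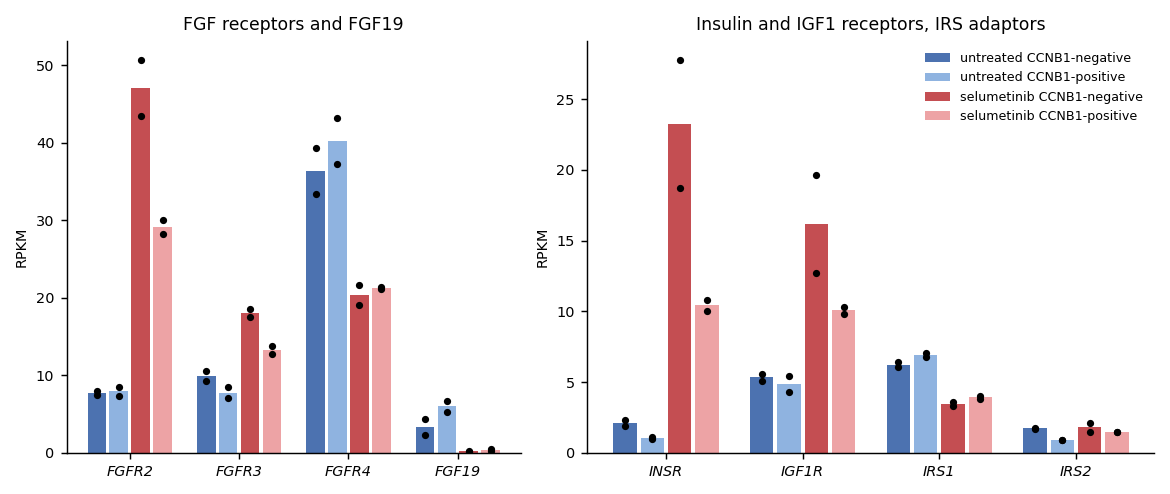
RPKM, reads per kilobase of canonical transcript (y axis, linear, from 0) of the FGF receptors and FGF19 (left) and of the insulin and IGF1 receptors and their substrates (right), as bars at the mean of 2 libraries, with the libraries as points, in the 4 groups. FGFR4 is the highest FGF receptor untreated and FGFR2 the highest under selumetinib, and INSR passes IGF1R.

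INSR, the insulin receptor, had the largest rise of the 10. It stood at 9.01 and 8.74 in untreated CCNB1-negative and 8.01 and 7.83 in untreated CCNB1-positive libraries, and at 11.93 and 12.46, and 11.06 and 11.15, under selumetinib. The change was 3.32 ± 0.18 in the negative fraction (9.97-fold, 95% interval 2.92 to 3.71 on the log2 scale, adjusted p = 5.34e-09) and 3.19 ± 0.18 in the positive fraction (9.13-fold, 2.80 to 3.58, adjusted p = 4.74e-08). IGF1R, its close relative that binds IGF1 and IGF2, stood at 10.67, 10.55, 10.64 and 10.31 untreated and at 11.74, 12.34, 11.40 and 11.46 treated. It rose by 1.43 ± 0.19 and 0.95 ± 0.19 (adjusted p = 1.04e-05 and 0.000546). Per base, INSR was at 0.410 and 0.370 times IGF1R in untreated CCNB1-negative libraries and at 1.48 and 1.41 times in treated ones, and in CCNB1-positive libraries at 0.209 and 0.231 and then at 1.02 and 1.05 times. INSR was thus the lower of the pair in every untreated library and level with IGF1R or above it in every treated library.

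Of the substrates that pass on the signal of these receptors, IRS1 fell in both fractions and IRS2 rose in the positive fraction. IRS1 stood at 10.45, 10.56, 10.63 and 10.70 untreated and at 9.47, 9.57, 9.72 and 9.76 treated, and fell by 0.99 ± 0.14 in CCNB1-negative and by 0.93 ± 0.14 in CCNB1-positive cells (adjusted p = 2.13e-05 and 6.57e-05). IRS2 stood at 8.34 and 8.44 in the untreated and at 8.07 and 8.52 in the treated CCNB1-negative libraries, which overlap, and the difference of -0.10 had a 95% interval of -0.53 to 0.33. In CCNB1-positive cells IRS2 rose from 7.43 and 7.44 to 8.10 and 8.08, by 0.66 ± 0.20 (adjusted p = 0.0103). That call was lost with quantile normalization (0.06, adjusted p = 0.820) and with limma-voom (0.32, adjusted p = 0.192), so it depends on the scaling. IRS1 and IRS2 differ little in length, and the per-base ratio of IRS2 to IRS1 was 0.124 to 0.277 over the untreated and 0.375 to 0.579 over the treated libraries. A 115-base stretch of IRS2 exons is shared with a noncoding RNA on the opposite strand, and the counting of strand is not stated.

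MET and EPHA2, the most abundant of the 10 per length beside FGFR4 in untreated cells, both fell. MET stood at 12.54, 12.79, 12.61 and 12.76 in the untreated and at 11.65, 11.63, 11.77 and 11.74 in the treated libraries. It fell by 1.03 ± 0.15 in the negative and by 0.93 ± 0.15 in the positive fraction (2.04-fold and 1.90-fold lower, adjusted p = 2.35e-05 and 9.67e-05). EPHA2 stood at 11.89, 11.65, 11.93 and 11.73 untreated, at 9.86 and 9.72 in treated CCNB1-negative and at 10.46 and 10.41 in treated CCNB1-positive libraries. It fell by 1.98 ± 0.15 (3.95-fold lower, adjusted p = 6.15e-08) and by 1.39 ± 0.15 (2.63-fold lower, adjusted p = 3.61e-06).

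Ranked per length over all 10 genes, untreated CCNB1-negative cells had MET (40.0 ± 4.5), EPHA2 (37.1 ± 4.6) and FGFR4 (36.4 ± 4.2 RPKM) at the top, which do not differ beyond their spread. INSR (2.09 ± 0.29) and IRS2 (1.72 ± 0.071) were at the bottom, next to FGF19 (3.38 ± 1.4). In treated CCNB1-negative cells FGFR2 was first, INSR second at 23.2 ± 6.4, and MET (21.5 ± 0.13), FGFR4, FGFR3 and IGF1R (16.2 ± 4.9) followed with spreads that overlapped that of INSR. EPHA2 had moved to 10.3 ± 0.56 and FGF19 to 0.163 ± 0.047. In treated CCNB1-positive cells the order was FGFR2 at 29.1 ± 1.2, MET at 22.7 ± 0.17, FGFR4 at 21.3 ± 0.19, EPHA2 at 15.7 ± 0.33 and FGFR3 at 13.2 ± 0.79, with INSR at 10.4 ± 0.54 and IGF1R at 10.1 ± 0.36 level with each other.

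The length of a gene on the genome moved with these changes. The median change of all tested genes over 100 kb was 1.05 in the negative and 0.80 in the positive fraction (2819 genes, of which 67.8% and 63.4% rose and 12.1% and 10.4% fell), against -0.38 and -0.02 for genes under 10 kb. INSR (182 kb), FGFR2 (120 kb), IGF1R (316 kb) and MET (126 kb) are in the longest class. IGF1R lay near the middle of its class, with 37.4% and 44.2% of these long genes above it. INSR had 4.42% and 2.87% of its class above it, and FGFR2 13.8% and 18.8%. MET, which fell, had 5.48% and 3.68% of its class below it. Among genes of 10 to 50 kb, 7.44% and 5.01% lay below EPHA2, 27.5% and 12.1% below FGFR4, and 23.6% and 24.6% above FGFR3. IRS1 (68.4 kb) had 14.3% and 7.35% of the genes of 50 to 100 kb below it. The part of gene length in the rises was not tested, and whether reads within introns entered the deposited values is not stated.

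**Figure D4:**
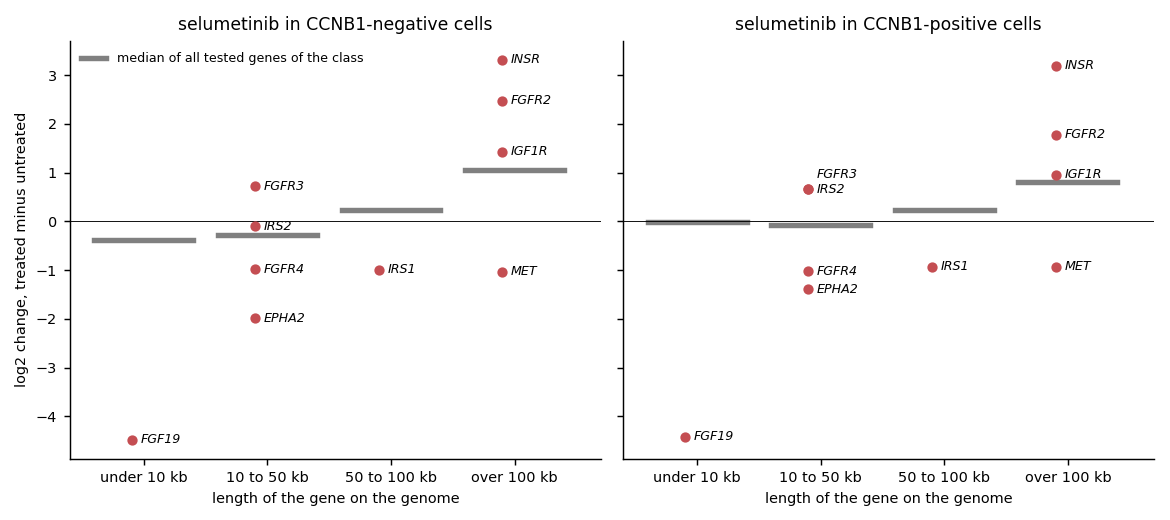
Change under selumetinib (y axis, log2, treated minus untreated) of the 10 genes (red points) by class of gene length on the genome (x axis), in CCNB1-negative (left) and CCNB1-positive (right) cells, with the median of all tested genes of each class as a grey bar. The bars rise from -0.38 to 1.05 and from -0.02 to 0.80 between the shortest and the longest class, and MET lies below the bar of the longest class while INSR and FGFR2 lie above it.

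Comparing the fractions within a treatment, INSR and IRS2 were lower in CCNB1-positive than in CCNB1-negative untreated cells, and the other 8 genes were not called. INSR was lower by 0.96 ± 0.18 (1.95-fold, adjusted p = 0.00869) and IRS2 by 0.96 ± 0.20 (1.94-fold, adjusted p = 0.0165) on the log2 scale, where 1.51% of all genes were called lower and 1.36% higher. Neither call was firm. INSR lost its call without the first CCNB1-negative library (-0.83, adjusted p = 0.0824), without the second CCNB1-positive library (-0.87, adjusted p = 0.0852) and with quantile normalization (-0.76, adjusted p = 0.0612). IRS2 lost its call whichever untreated library was left out (-1.01 to -0.90, adjusted p = 0.0557 to 0.133) and with quantile normalization (-0.70, adjusted p = 0.199). No gene of the 10 was called higher in the positive fraction by limma or limma-voom, and 0 had an unadjusted p under 0.05 in that direction. In the other direction 3 did, FGFR3 (-0.35 ± 0.15, adjusted p = 0.312) beside INSR and IRS2, and the FGFR3 libraries of the fractions did not overlap (10.08 and 9.90 against 9.76 and 9.52). FGF19 was higher there by 0.90 ± 0.52 with an adjusted p of 0.520, and its 95% interval of -0.23 to 2.02 leaves a 4.05-fold difference possible. MET, IGF1R, FGFR2, FGFR4 and EPHA2 differed by -0.14 to 0.15, with libraries that overlapped between the fractions.

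In selumetinib-treated cells INSR, FGFR2 and IGF1R were lower and EPHA2 higher in the CCNB1-positive fraction, where 7.87% of all genes were lower and 13.8% higher. INSR was lower by 1.09 ± 0.18 (2.13-fold, adjusted p = 0.000929). FGFR2 was lower by 0.65 ± 0.14 (1.57-fold, adjusted p = 0.00695) and IGF1R by 0.61 ± 0.19 (1.53-fold, adjusted p = 0.0333), and EPHA2 was higher by 0.65 ± 0.15 (1.57-fold, adjusted p = 0.00779). The 3 that were lower in the positive fraction had risen under the drug, and EPHA2 had fallen. The response of negative cells and this comparison share the treated CCNB1-negative libraries, which enter them with opposite sign. Here too the median of genes over 100 kb was lower (-0.32) and that of genes of 10 to 50 kb higher (0.13), and 23.4% of the long genes lay below IGF1R, 20.2% below FGFR2 and 3.82% below INSR.

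INSR was the only one of these 4 calls that held in each treated library's absence. Without the second CCNB1-negative library, which had the highest INSR, IGF1R and FGFR2 values and the highest MALAT1 share, IGF1R was at -0.31 (adjusted p = 0.309), FGFR2 at -0.55 (adjusted p = 0.0551) and EPHA2 at 0.58 (adjusted p = 0.0551). FGFR2 was also lost without the second CCNB1-positive library (-0.60, adjusted p = 0.0585), EPHA2 without the first (0.62, adjusted p = 0.0672), and IGF1R without either (-0.58 and -0.64, adjusted p = 0.153 and 0.0999) and with no filter on low values (adjusted p = 0.0849). FGF19 passed without the first CCNB1-positive library (1.80, adjusted p = 0.0345), in which it had 6 reads against 14 in the second. FGFR3 was at -0.40 ± 0.15 (adjusted p = 0.0676) and was called with quantile normalization (-0.50, adjusted p = 0.0199) and with log2(RPM + 1) (-0.44, adjusted p = 0.0445).

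**Figure D5:**
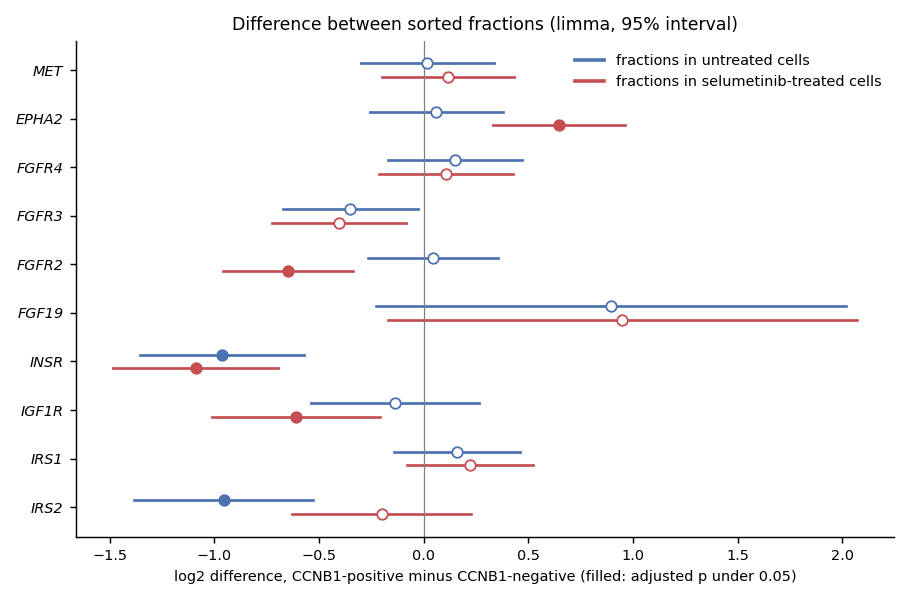
Difference between the fractions (x axis, log2, CCNB1-positive minus CCNB1-negative) of the 10 genes in untreated (blue) and selumetinib-treated (red) cells, with points at the limma estimate and bars for the 95% interval. Filled points have an adjusted p under 0.05. INSR is lower by about the same amount in both, -0.96 and -1.09, while FGFR2 and EPHA2 are near 0 untreated and at -0.65 and 0.65 treated.

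Whether the response itself differed between the fractions was tested as an interaction. None of the 10 was called by limma (4.99% of all genes were higher, meaning a more positive response in CCNB1-positive cells, and 0.345% lower). At an unadjusted p under 0.05 there were 3, FGFR2 (-0.69, 95% interval -1.13 to -0.25, adjusted p = 0.0706), EPHA2 (0.59, 0.14 to 1.04, adjusted p = 0.133) and IRS2 (0.75, 0.15 to 1.36, adjusted p = 0.150). limma-voom called 1 and quantile normalization 1, FGFR2 in each (-0.78, adjusted p = 0.0470, and -0.79, adjusted p = 0.0286). Without the first treated CCNB1-negative library FGFR2 (-0.79, adjusted p = 0.0303) and IGF1R (-0.77, adjusted p = 0.0423) were called. The intervals for MET (-0.35 to 0.55), IRS1 (-0.36 to 0.49), FGFR3 (-0.51 to 0.40) and FGFR4 (-0.50 to 0.41) still allow differences of up to 1.46-fold, and that of FGF19 (-1.53 to 1.64) allows 3.12-fold. With same-numbered libraries blocked within each treatment, FGFR2, EPHA2, IRS2 and IGF1R were called, in a setting that called 3850 of the 14219 genes tested.

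Other receptor tyrosine kinases also moved in both directions. Of 47 listed, 19 were tested, 11 rose and 4 fell in CCNB1-negative cells and 9 rose and 4 fell in CCNB1-positive cells (median 0.65 and 0.31), where 38.2% of all genes tested rose and 35.8% fell in the negative and 38.0% rose and 27.3% fell in the positive fraction. EPHA4, an ephrin receptor like EPHA2, had 12, 10, 9 and 8 reads in the untreated and 115, 159, 52 and 61 in the treated libraries, and passed the filter through the treated ones. Its rise of 4.11 ± 0.40 and 3.08 ± 0.40 thus starts from few reads. MERTK, named after its values were seen, had 13 to 25 reads in untreated and 33 to 86 in treated libraries. It too passed the filter through the treated ones. STYK1, a kinase-like membrane protein, rose by 2.51 ± 0.17 and 2.47 ± 0.17. TYRO3, a receptor of the AXL family, fell by 1.44 ± 0.18 and 0.66 ± 0.18, and MST1R, the closest relative of MET, by 1.10 ± 0.17 and 0.91 ± 0.17. MET and MST1R thus both fell, whereas EPHA2 fell and EPHA4 rose.

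Most of the listed ligands of these receptors were under the filter. Of 26 listed, 7 were tested, namely IGF2, FGF9 and the ephrin genes EFNA1 to EFNA5. HGF, INS and IGF1, which bind MET, INSR and IGF1R, were among the 19 under the filter. IGF2, another ligand of IGF1R, named here after its values were seen, was expressed (24 to 235 reads per library) and differed by -1.04 ± 0.48 and -0.48 ± 0.48 (adjusted p = 0.0645 and 0.393), with libraries that overlapped between treatments. FGF9, also named after its values were seen, had 247 to 467 reads per library. Its mean log2 value was 8.64 untreated and 9.50 treated in CCNB1-negative cells. In CCNB1-positive cells it was 8.31 and 8.73, with libraries that overlapped. Of the 7 tested, 4 rose and 1 fell in CCNB1-negative cells, and 3 rose and 1 fell in CCNB1-positive cells (median 0.86 and 0.55). The shares of all genes were the same as above, 38.2% and 35.8%, and 38.0% and 27.3%. EFNA1, a ligand of EPHA2, rose by 1.30 ± 0.19 and 1.71 ± 0.19 while EPHA2 fell, and EFNA5 rose by 1.01 ± 0.19 and 0.95 ± 0.19. EFNA2 fell by 0.64 ± 0.18 and 0.50 ± 0.18.

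Of 27 adaptors and proximal signalling proteins listed, 23 were tested, 16 rose and 4 fell in CCNB1-negative and 12 rose and 4 fell in CCNB1-positive cells (median 1.03 and 0.82, against 0.05 and 0.17 over all genes, of which 38.2% rose and 35.8% fell, and 38.0% rose and 27.3% fell). SOS2, an exchange factor that activates RAS, rose by 2.99 ± 0.19 and 2.59 ± 0.19, and GAB2, a docking protein, by 3.02 ± 0.21 and 2.37 ± 0.21. PTPN11, the phosphatase SHP2 that receptors need to activate RAS, fell by 1.05 ± 0.16 and 1.14 ± 0.16. SH2B3, an inhibitory adaptor, fell by 1.46 ± 0.35 in CCNB1-negative cells and was at -0.51 ± 0.35 in CCNB1-positive cells (adjusted p = 0.210). The response of PIK3R3, a regulatory subunit of PI3K named after its value was seen, was lower in CCNB1-positive cells by 0.87 ± 0.23 (adjusted p = 0.0406).

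Among the genes that control insulin and IGF signalling, 10 of 15 were tested, 6 rose and 4 fell in CCNB1-negative and 5 rose and 4 fell in CCNB1-positive cells (median 0.53 and 0.34), beside 38.2% and 35.8%, and 38.0% and 27.3%, of all genes. FOXO3, a transcription factor that AKT keeps out of the nucleus, rose by 2.61 ± 0.15 and 2.40 ± 0.15, and INPPL1, a lipid phosphatase that lowers PI3K output, by 1.62 ± 0.23 and 1.64 ± 0.23. The binding proteins IGFBP6 and IGFBP4, which hold IGFs outside the cell, fell by 1.85 ± 0.20 and 0.72 ± 0.20, and by 1.40 ± 0.15 and 0.91 ± 0.15. IGFBP6 was also the 1 gene of the list whose response was higher in CCNB1-positive cells, by 1.13 ± 0.28 (adjusted p = 0.0286). INSR, with its 9.97-fold and 9.13-fold rise, exceeded every tested gene of this list.

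The ERK target genes that checked the treatment had a median change of -1.66 in the negative and -1.24 in the positive fraction. ETV4 and ETV5, transcription factors induced by ERK, fell by 3.10 ± 0.31 and 2.34 ± 0.31, and by 2.95 ± 0.30 and 2.02 ± 0.30. EGR1, an immediate early gene, rose by 1.17 ± 0.22 and 1.58 ± 0.22. On the deposited scale FGF19 fell further than any of these 8.

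For each of the 10 genes the tested genes with the most similar profile over the 8 libraries were found by Pearson's r. Genes whose symbol is a clone, LINC or other identifier were left out of this search. Pearson's r here is a description, since the libraries fall into 4 groups. FGF19 was most like FJX1 (r = 0.994) and URB1 (0.993), EPHA2 like MFN2 (0.998) and TIMP1 (0.997), MET like UAP1 (0.999) and ETF1 (0.999), and FGFR4 like ATP1B1 (0.996) and VPS9D1-AS1 (0.995). INSR was most like ZMYM5 (0.999) and SGK3 (0.998), IGF1R like AUH (0.999) and GPR153 (0.998), FGFR2 like FANK1 (0.998) and WDR45 (0.998), and FGFR3 like PIGZ (0.998) and GPR176 (0.994). IRS1 was most like DTD1 (0.999) and LTV1 (0.999). IRS2 had the least close matches, USP37 (0.980) and CASP8AP2 (0.971), which like IRS2 were lowest in the untreated CCNB1-positive libraries. FANK1 went from 7.30, 7.17, 7.18 and 7.06 to 10.48, 10.56, 9.74 and 9.58, a steeper rise than that of FGFR2.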

How the data were processed

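Poly(A) mRNA-seq libraries of sorted HT29 cells were analysed, 2 in each of 4 groups. Per the labels and the study's methods, reads were trimmed (Trim Galore 0.5.0) and aligned (HISAT2 2.1.0, GRCh38), and the authors quantified genes with SeqMonk and deposited log2 values of reads scaled to the total read count of the largest library. Annotation release and strand setting of this table are not given in the sources used here. All 8 value columns were used. The replicate numbers were taken from the labels.

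Whole reads were recovered from the deposited log2 values (for at least 99.9% of genes within 0.02 reads) and set the depth given. They carry no molecular identifiers, so intervals cover counting error only. The 14219 genes averaging 1 RPM or more entered a limma fit (version 3.58.1, R 4.3.3, trended variance) on the log2 values, with 4 group means and Benjamini-Hochberg adjustment over all of them at 0.05. The authors' own test was a count model, whereas the deposited values are on the log2 scale, to which limma was applied. The recovered reads were used with limma-voom as an alternative. The limma step was tested on simulated data. Lengths are those of Ensembl canonical transcripts in GENCODE release 44, and 99.3% of gene identifiers were found there. Promoter sequences are from RefSeq (GRCh38.p14).

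All 10 members were named. From each gene list, among those called, the 2 tested genes with the largest mean rise and the 2 with the largest mean fall were named. The mean was taken over both treatment comparisons, and short lists could be named whole. For each member the 2 genes of most similar profile were named, leaving out symbols that are clone, LINC or other identifiers. The members, lists and motifs were chosen with earlier results of these data known. Alternatives changed the filter (none, or 10 RPM), the scaling (quantile, limma-voom, log2(RPM + 1)), the replicate block, the groups in the fit, the thresholds and each library in turn. Scaling to nuclear genes without MALAT1 was added after seeing the data.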

Additional observations from a re-analysis of the deposited data

How the results depend on the processing

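Every gene called under selumetinib kept its direction under all alternatives. With a change of at least 2-fold required, 6 of 10 were called in the negative and 5 in the positive fraction, 0 between untreated and 1 between treated fractions. Shares of all genes at the 2-fold cut and at a threshold of 0.01 are not given here. Whether the counts at these cuts are usual for the data was thus not tested. A threshold of 0.01 left 1 call between untreated fractions and quantile normalization 0, and leaving out libraries gave 0 to 2 there. Between treated fractions leaving out libraries gave 1 to 4 calls (1 without the second CCNB1-negative library, 2 without the second CCNB1-positive library). For the difference of responses, quantile normalization and limma-voom gave 1 call each and leaving out libraries 0 to 2. The 10 RPM filter removed FGF19 from the test.

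Signs turned only for differences that were not called. IRS2 in CCNB1-negative cells was 0.04 with log2(RPM + 1), 0.078 with scaling without MALAT1, and -0.32 to 0.13 over libraries left out. Between untreated fractions MET was -0.029 with quantile normalization. Between treated fractions FGF19 was -0.0028 with quantile normalization. The difference of responses of FGF19 was -0.87 (quantile), -0.11 (limma-voom) and -0.47 (log2(RPM + 1)), and that of IRS1 -0.027 (limma-voom). Over the libraries left out, the untreated fractions differed by -0.11 to 0.14 (MET), -0.30 to 0.027 (IGF1R), -0.059 to 0.15 (FGFR2) and -0.057 to 0.18 (EPHA2), the treated fractions by -0.43 to 0.023 (IRS2), and the responses by -0.027 to 0.22 (MET), -0.39 to 0.14 (INSR), -0.18 to 0.069 (FGFR3), -0.15 to 0.065 (FGFR4) and -0.80 to 0.91 (FGF19). Beyond leaving out libraries, 415 values were recomputed, of which 391 kept sign and side of the threshold, 6 lost and 10 gained a call and 8 turned sign. With a library left out the counts were 364, 13, 3 and 20 of 400. The cause was not tested.

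The median change of all genes moved with the scaling, in CCNB1-negative cells from 0.05 to -0.20 (limma-voom) and 0.23 (without MALAT1), and in CCNB1-positive cells from 0.17 to -0.17 and 0.31. Relative to the median, FGFR3 was 0.68 and 0.51 and IRS2 in CCNB1-positive cells 0.49. The share of calls that were higher went from 58.1% to 47.1% (quantile) or 41.0% (limma-voom) under selumetinib in CCNB1-positive cells, from 47.5% to 65.7% or 66.8% between untreated fractions, from 63.6% to 46.5% (quantile) between treated fractions, and from 93.5% to 69.2% (quantile) for the difference of responses.

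Same-numbered libraries deviated together within a treatment (r = 0.352 untreated and 0.428 treated) and not across treatments (-0.088 to 0.082). No label names a culture shared by the fractions, so the main fit did not take the numbers as pairs. A pairing of the fractions within a treatment remains possible. A replicate block by treatment gave 4 calls for the difference of responses (EPHA2 0.59 and IRS2 0.75 higher, FGFR2 -0.69 and IGF1R -0.47 lower, adjusted p = 0.00309, 0.0189, 0.0017 and 0.039) and added FGFR3 between fractions (-0.35 untreated, -0.40 treated). It changed no other call of the genes described here, and a block shared by both treatments changed none. Over all genes, the block by treatment called 3850 of 14219 for the difference of responses, against 758 in the main fit. Between untreated fractions it called 1923 against 408, and between treated fractions 6671 against 3077. The 4 calls were thus made in a setting that called many more genes. Whether 4 calls are unusual in that setting was not tested.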
